A study of Mus musculus with 42 samples.

Results

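The genes of proline and ornithine metabolism were followed through liver and 2 fats, white (WAT) and brown adipose tissue (BAT), of mice given VAAM, an amino acid mixture that imitates the larval saliva of Vespa hornets and contains proline. The 7 genes named were Prodh, Prodh2, Aldh4a1, Oat, Aldh18a1, Pycr1 and Odc1. Every probe set annotated to 1 of them alone was taken, whatever its value, which gave 12 probe sets of 6 genes among the 45037 probe sets that were no controls and the 18193 genes. No probe set of the annotation used here named Pycr1 alone, and its values are not given. Aldh18a1 had 5 probe sets, Odc1 had 3, and Prodh, Prodh2, Aldh4a1 and Oat had 1 each.

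Proline is broken down in mitochondria, where proline dehydrogenase, encoded by Prodh, makes pyrroline-5-carboxylate and the enzyme encoded by Aldh4a1 oxidizes that product to glutamate. In the opposite direction the synthase encoded by Aldh18a1 makes pyrroline-5-carboxylate from glutamate, and Pycr1 encodes an enzyme that reduces it to proline. Ornithine joins this pool through ornithine aminotransferase, encoded by Oat, and leaves it for polyamine synthesis through ornithine decarboxylase, encoded by Odc1. The liver is a main site of amino acid breakdown and of the urea cycle, in which ornithine also takes part.

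The mice were male, of the outbred ddY strain, 5 weeks old on arrival and acclimated for 1 week. They received 37.5 μL per g of body weight of 1.8% VAAM or of water by feeding tube once a day on 5 days, and tissues were taken 4 h after the last dose, food having been removed before it. Each group held 7 mice, and each tissue of each mouse was measured on 1 Affymetrix mouse genome array, which gave 42 arrays. The arrays of mice given a casein amino acid mixture were not analysed here. The 2 groups are different mice, so their replicate numbers do not pair them.

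Values were used as deposited, on a log scale taken as log2, and the authors' summary of the probes left only a small spread between arrays of a tissue. The median within-group SD over all liver probe sets was 1.06e-05. Each difference between groups is for this reason divided by the within-group SD of its tissue, and it is not a fold change. The arrays matched their labels: the hepatocyte gene Alb stood at 15.0 in liver against 7.04 in WAT, the adipocyte gene Adipoq at 14.39 in WAT and 14.04 in BAT against 5.89 in liver, and the thermogenic gene Ucp1 at 14.22 in BAT against 6.36 in WAT. The WAT arrays also carried signal of epididymal genes, with Lcn8 at 9.53 against 6.58 in BAT. The BAT arrays carried signal of skeletal muscle, with Acta1 at 10.69 against 7.18 in WAT. These levels are means over the water and VAAM arrays of a tissue. Lcn5, another epididymal gene, stood at 10.0 in WAT over both groups but at 7.28 in the water mice alone. In bulk tissue, fewer cells of a type and less RNA per cell cannot be told apart.

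The 3 breakdown enzymes stood higher in liver than in either fat. The level of Prodh2, which encodes a dehydrogenase of hydroxyproline related to proline dehydrogenase, was 10.81 in the liver of water mice, 6.33 in WAT and 6.26 in BAT. In both fats this probe set lay below the median of all probe sets, whereas in liver it ranked above 96.9% of them. Prodh stood at 9.84 in liver, 8.55 in WAT and 7.86 in BAT. Aldh4a1 stood at 9.64, 8.25 and 8.03 in the same order. Its order between the fats was not settled, since BAT minus WAT was -0.22 on the deposited scale and 0.12 when all 42 arrays were quantile normalized together. For Prodh, Prodh2 and Aldh4a1 the excess in liver held in the VAAM mice and under that normalization, while BAT minus WAT of Prodh went from -0.69 to -0.36.

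Oat and Odc1 followed another order. Oat was highest in WAT, at 11.57, against 10.92 in liver and 9.75 in BAT, and it ranked above at least 93.8% of the probe sets in each tissue. The 3 probe sets of Odc1 disagreed: 1438761_a_at gave 9.84 in liver, 10.1 in WAT and 9.11 in BAT, 1437711_x_at gave 8.72, 9.93 and 9.5, and 1427364_a_at gave 8.14, 7.67 and 7.81. Thus 2 of the 3 were highest in WAT, and 1427364_a_at was highest in liver. Under joint quantile normalization liver minus WAT of 1438761_a_at shrank from -0.27 to -0.08, so its order between these tissues is weakly set. For Aldh18a1, 4 of the 5 probe sets were highest in WAT, and 1435855_x_at was highest in BAT, at 8.05 against 7.6 in WAT and 6.96 in liver. In liver, 4 of the 5 lay below the median of all probe sets, which was 6.73, with levels between 6.02 and 6.26. Of these, 1415836_at, 1437333_x_at and 1437620_x_at also lay below the median in both fats. Their levels in WAT were 6.65, 6.57 and 6.29, where the median was 6.91, so their order between tissues is weakly set.

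No test is given for these levels. The SD between the 7 water mice ran only from 1.8e-06 to 0.00502 over the 12 probe sets and 3 tissues, and the water arrays of each pair of tissues did not overlap for 12 of 12 member probe sets. The same was true of 99.8% of all probe sets for liver against WAT, of 99.9% for liver against BAT and of 99.7% for BAT against WAT, so the lack of overlap is no result about the members. Counted over the 12, 4 were higher in liver than in WAT, 7 were higher in liver than in BAT, and 2 were higher in BAT than in WAT. Of all probe sets, 16775 of 45037 were higher in liver than in WAT, 20019 higher in liver than in BAT, and 16680 higher in BAT than in WAT.

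**Figure D1:**
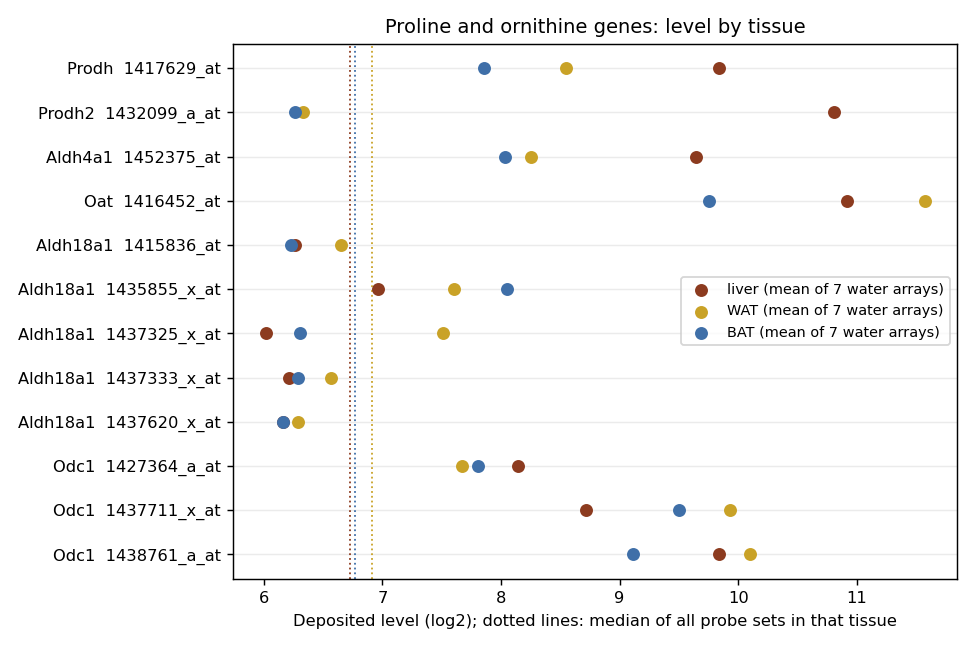
Level of each of the 12 probe sets (x axis, deposited log2 value) in the liver, WAT and BAT of water mice; each point is the mean of 7 arrays, and dotted lines mark the median of all probe sets in a tissue. SDs are smaller than the points. Prodh, Prodh2 and Aldh4a1 lie farthest to the right in liver, with Prodh2 at 10.81 against 6.33 and 6.26 in the fats, while Oat is highest in WAT at 11.57.

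The bases before the start are shown for the 4 genes read from 1 probe set each, for which probe sets cannot disagree on the order of the tissues: Prodh, Prodh2 and Aldh4a1, highest in liver, and Oat, highest in WAT. Each run is the 250 bases before the annotated start, from RefSeq on the GRCm38.p6 build, read 5′ to 3′ on the strand of the gene. Prodh lies at chr16:18089191-18089440 on the minus strand, Prodh2 at chr7:30493408-30493657 on the plus strand, Aldh4a1 at chr4:139622644-139622893 on the plus strand and Oat at chr7:132576399-132576648 on the minus strand. Capitals mark matches to any of 7 motifs searched on both strands.
Prodh: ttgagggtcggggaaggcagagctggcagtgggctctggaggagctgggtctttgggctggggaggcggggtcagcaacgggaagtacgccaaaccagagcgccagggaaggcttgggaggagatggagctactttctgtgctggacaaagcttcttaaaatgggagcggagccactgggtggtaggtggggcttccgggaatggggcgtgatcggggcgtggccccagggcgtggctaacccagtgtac
Prodh2: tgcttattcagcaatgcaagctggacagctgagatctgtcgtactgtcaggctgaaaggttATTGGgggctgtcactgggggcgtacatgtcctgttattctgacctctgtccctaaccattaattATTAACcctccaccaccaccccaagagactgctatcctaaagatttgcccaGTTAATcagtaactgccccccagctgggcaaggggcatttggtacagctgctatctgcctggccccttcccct
Aldh4a1: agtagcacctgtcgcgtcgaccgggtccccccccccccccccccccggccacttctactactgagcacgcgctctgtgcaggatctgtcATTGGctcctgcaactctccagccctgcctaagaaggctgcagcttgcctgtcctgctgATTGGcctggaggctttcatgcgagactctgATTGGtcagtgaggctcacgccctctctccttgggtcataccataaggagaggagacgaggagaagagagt
Oat: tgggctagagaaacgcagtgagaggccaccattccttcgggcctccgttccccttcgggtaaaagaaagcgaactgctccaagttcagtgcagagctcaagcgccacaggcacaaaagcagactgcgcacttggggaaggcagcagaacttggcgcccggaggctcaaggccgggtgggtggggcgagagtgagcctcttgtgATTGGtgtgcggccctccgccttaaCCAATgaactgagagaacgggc

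The motifs were TATAAA, held by 12.4% of all 32851 promoter windows of this length, CCAAT by 33.8%, GGGCGG by 32.7%, CACGTG by 6.02%, TGATGNAA by 3.45%, CAAAGTCCA by 0.384%, and GTTAAT by 6.43%. The last is a half-site of HNF1, a liver factor, and was added after the sequences had been read. No 2 matches overlapped in the windows of the 7 genes. The Aldh4a1 window held 3 CCAAT matches on the opposite strand, and Oat held 1 on each strand, between 47 and 18 bases before the start. The Prodh2 window held 1 CCAAT match and 2 GTTAAT matches, from 124 to 119 bases before the start on the opposite strand and from 73 to 68 on the strand of the gene, and the Prodh window held none of the 7. Of the windows not shown, Pycr1 held TGATGNAA, a core of the amino acid response element bound by Atf4, from 103 to 96 bases before the start, with 2 CCAAT and 1 GGGCGG, Aldh18a1 held CACGTG and 1 GGGCGG, and Odc1 held 4 GGGCGG. These matches are descriptions of letters and not of sites in use.

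VAAM was then compared with water, to ask whether the RNA of these enzymes differed after the doses. No member passed the test in any tissue. By limma, with p adjusted over all 45037 probe sets, 0 of 12 member probe sets were called in liver, 0 in WAT and 0 in BAT, where the share called among all probe sets was 0.0% in each tissue. At an unadjusted limma p under 0.05 the members again numbered 0 in every tissue, against 9.09% of all probe sets in liver, 3.76% in WAT and 5.1% in BAT. The smallest adjusted limma p of a member was 0.587 in liver, 1.0 in WAT and 0.949 in BAT. With 7 mice a group, the SE of a difference near 0 was 0.535 SD, so differences of the size seen here could not be told from 0.

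On the deposited scale the means of the breakdown enzymes in liver lay on the lower side without passing the test. In liver the Prodh values of the water mice ran from -1.38 to 0.53 SD from the water mean, with a median of 0.30, and those of the VAAM mice from -2.40 to 0.89, with a median of -0.55. The groups overlapped, 3 VAAM mice lay below every water mouse and 1 lay above every water mouse. Prodh2 gave a VAAM median of -0.64 SD, from -2.40 to 0.35, against a water median of -0.04, from -1.19 to 1.53. Again 3 VAAM mice lay below every water mouse, and the mean difference was -0.74 ± 0.56 SD (SE, n = 7 and 7), with a two-sided exact permutation p of 0.195. Aldh4a1 differed by -0.39 ± 0.54 SD (exact permutation p = 0.468), and the lowest and the highest of the 14 livers were both from VAAM mice. When the liver arrays were quantile normalized again, Prodh went from -0.75 to -0.025 SD, Aldh4a1 turned to 0.19 SD and Prodh2 stood at -0.617 SD. The same step moved the median of all liver probe sets from -0.05 to -0.35 SD and left 25.8% of them higher. Against that median, Prodh2 lay lower, and Prodh and Aldh4a1 lay higher.

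In liver the probe sets of the synthesis side gave differences of either sign. The probe set 1437325_x_at of Aldh18a1 had the largest difference of the 12, at 1.02 ± 0.57 SD (two-sided exact permutation p = 0.0746, adjusted limma p = 0.587). Its VAAM mice ran from 0.17 to 3.27 SD with a median of 0.71, and its water mice from -1.07 to 1.45 with a median of -0.16. Every VAAM mouse was above the median of the water mice, but only mouse 5 lay above every water mouse, and without that mouse the difference was 0.86 SD. The other 4 probe sets of the gene gave differences between -0.43 and 0.47 SD, and 3 of these 4 were negative. After the second quantile normalization 1437325_x_at stood at 1.04 SD and the other 4 between -0.995 and 0.22 SD. The level of 1437325_x_at was 6.02, above only 9.3% of the liver probe sets.

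The ornithine enzymes in liver had small differences. For Oat the VAAM mice ran from -0.995 to 1.36 SD with a median of 0.50, and the water mice from -2.13 to 1.03 with a median of 0.21. The 3 probe sets of Odc1 differed by 0.05 to 0.14 SD. None of these 4 probe sets had an exact permutation p under 0.793. After the second quantile normalization Oat stood at -0.23 SD and the Odc1 probe sets between -0.044 and 0.557 SD.

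**Figure D2:**
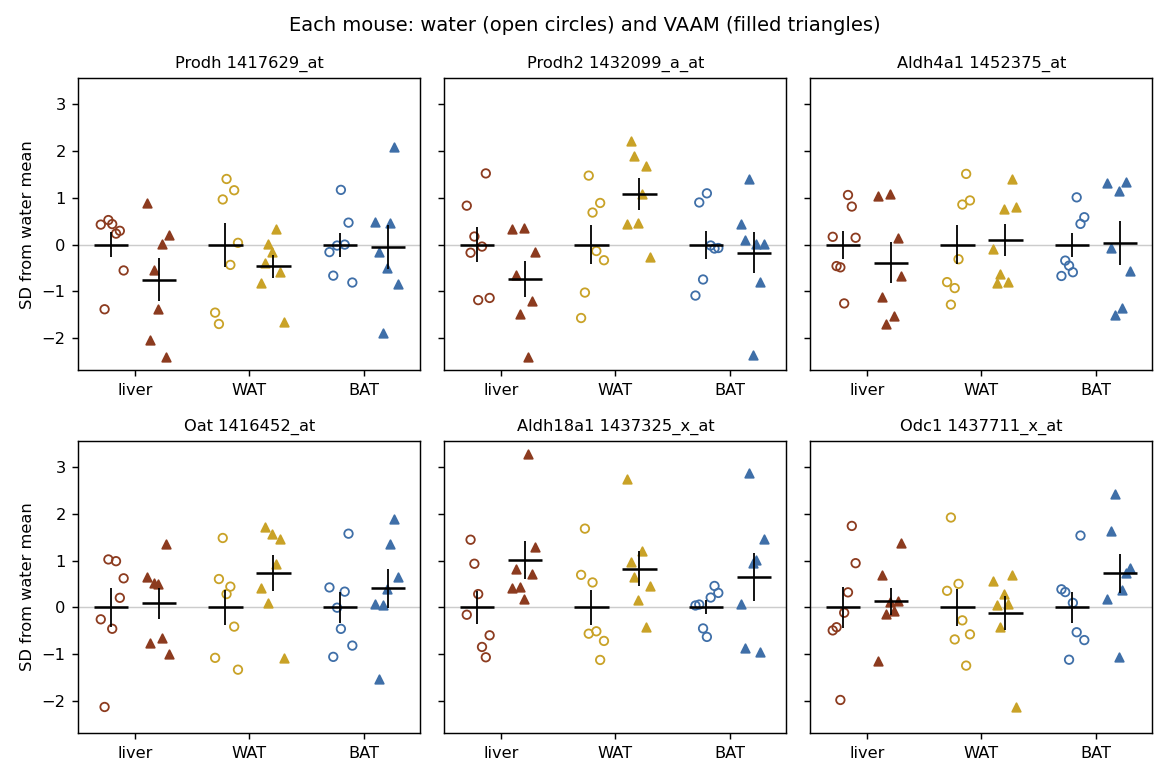
Each mouse in SD from the water mean (y axis) for 1 probe set of each gene, the one with the widest spread in liver, in liver, WAT and BAT; open circles are water mice, filled triangles VAAM mice, bars the group means and vertical lines their SE (n = 7). Water and VAAM points overlap in every panel; the highest triangle in liver for Aldh18a1 1437325_x_at is VAAM mouse 5, at 3.27 SD, whereas the brightest probe set of that gene in liver, 1435855_x_at, is not drawn and differed by -0.11 SD.

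In WAT most member probe sets lay on the higher side, but the direction turned with the normalization. Of the 12 probe sets, 10 were higher and 2 lower, with a median of 0.69 SD, against a median of -0.01 SD over all probe sets, of which 49.4% were higher. The 10 include all 5 probe sets of Aldh18a1, and probe sets of the same gene are not independent. When the WAT arrays were quantile normalized again, 0 of 12 were higher, with a median of -0.44 SD, and only 4% of all probe sets were higher, with a median of -0.54 SD. Prodh2 had the largest difference, at 1.08 ± 0.58 SD (two-sided exact permutation p = 0.0688, adjusted limma p = 1.0), and -0.63 SD after the second normalization. Its VAAM mice ran from -0.26 to 2.22 SD with a median of 1.09, its water mice from -1.57 to 1.48 with a median of -0.14, and 6 of the 7 VAAM mice lay above the water median. The level of this probe set in WAT was below the median of all probe sets, as given above.

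The synthase Aldh18a1 and the aminotransferase Oat followed the same course in WAT. The 5 probe sets of Aldh18a1 differed by 0.25 to 0.85 SD on the deposited scale and by -0.83 to -0.43 SD after the second normalization. For 1437325_x_at and 1437620_x_at every VAAM mouse was above the median of the water mice, and for 1437333_x_at 5 VAAM mice lay above every water mouse, with an exact permutation p of 0.128. The levels of 1437620_x_at and 1437333_x_at in WAT, 6.29 and 6.57, lay below the median of all probe sets. VAAM mouse 1 was the highest VAAM mouse for 4 of the 5 probe sets, and its array had the highest median of the 14, at 6.9133, followed by water mouse 1 at 6.9118, while the other 12 lay between 6.9076 and 6.9102. Without both of these arrays, 8 of the 12 member probe sets were higher and 4 lower, with a median of 0.48 SD. Oat differed by 0.74 ± 0.56 SD (exact permutation p = 0.193) and Prodh by -0.47 ± 0.54 SD (exact permutation p = 0.396). The epididymal genes in WAT, 7 of 8 measured, had a mean standardized level from -0.75 to 1.42 in the water mice. In the VAAM mice it ran from -0.52 to 2.21. Of the 7, 3 were higher and 4 lower, and Lcn5 differed by 2.16 ± 0.69 SD (exact permutation p = 0.00175). The part of epididymal genes in the member differences was not tested.

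In BAT, 9 of the 12 were higher and 3 lower, with a median of 0.40 SD. Over all probe sets the median was -0.02 SD, and 48.6% were higher. After the second quantile normalization 2 of the 12 were higher and 10 lower, where only 11.4% of all probe sets were higher. The 3 probe sets of Odc1, the enzyme that starts polyamine synthesis, differed by 0.39, 0.56 and 0.73 SD. For 1437711_x_at the VAAM mice ran from -1.07 to 2.42 SD with a median of 0.73, and the water mice from -1.12 to 1.54 with a median of 0.10. The groups overlapped, 2 VAAM mice lay above every water mouse, and the exact permutation p was 0.189. The largest difference belonged to Aldh18a1 1437620_x_at, at 0.76 ± 0.56 SD (exact permutation p = 0.18), and it was -0.12 SD after the second normalization. The level of this probe set was 6.16, above only 15.7% of the BAT probe sets. Prodh, Prodh2 and Aldh4a1 differed by -0.05, -0.17 and 0.04 SD. Aldh4a1 had an SD of 0.00264 under VAAM and 0.00142 under water, with 3 VAAM mice above and 2 below every water mouse. In BAT the VAAM group had the larger SD for each of the 12 probe sets, as for Aldh18a1 1437333_x_at at 2.94e-05 against 7.93e-06. The difference in spread was not tested. Adipocyte genes, 4 of 6 measured, had a mean standardized level from 0.14 to 0.97 in VAAM mice and from -0.86 to 0.36 in water mice, and muscle genes, 6 of 6 measured, from -1.01 to 1.4 and from -0.95 to 1.57. Their part in the member differences was not tested.

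**Figure D3:**
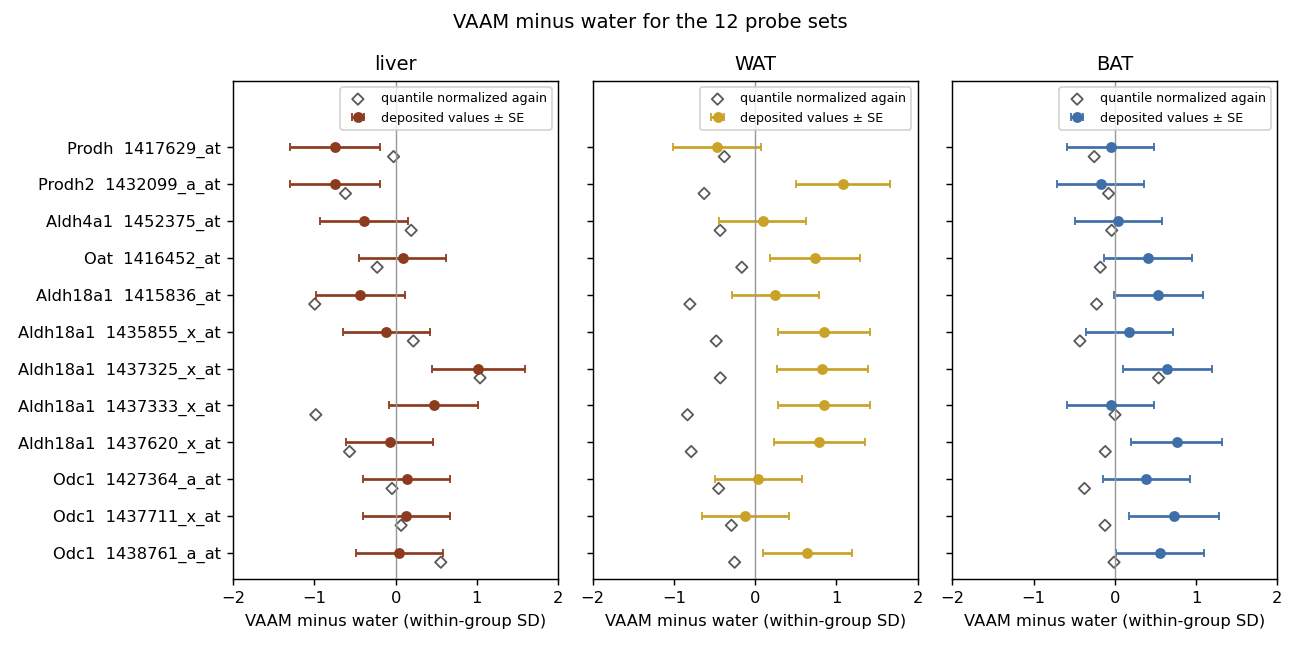
VAAM minus water for each of the 12 probe sets (x axis, in within-group SD) in liver, WAT and BAT; filled points are the deposited values with SE (n = 7 and 7), open diamonds the values after the arrays of a tissue were quantile normalized again. No filled point reaches an adjusted limma p under 0.05, and in WAT all 12 diamonds lie below 0 while 10 of the 12 filled points lie above it.

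Rank products, the method named in the study, gave calls in liver on the deposited scale. At a false discovery rate of 0.05, 4 of the 12 members were called in liver, against 3.83% of all probe sets: Aldh18a1 1437325_x_at and Odc1 1437711_x_at as higher, and Prodh and Oat as lower. In WAT and BAT the count was 0 of 12, against 3.3% and 4.03%. Oat was called lower although its mean was 0.09 ± 0.54 SD above water, and Odc1 1437711_x_at was called higher with a difference of 0.13 ± 0.54 SD. The method ranks differences as deposited, and the 4 called probe sets had a within-group SD larger than that of at least 94.3% of liver probe sets, against 95.4% for Aldh4a1, which was not called, and at most 90.6% for the other 7. When each probe set was scaled to unit SD, 0 of 12 were called in each tissue, against 0.881% of all probe sets in liver, 0.162% in WAT and 0.329% in BAT.

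The difference of the VAAM effect between tissues was tested on values scaled to unit SD. The fit took the arrays as independent, although liver, WAT and BAT came from the same mice. The SE and p of this test therefore leave out any likeness between the tissues of a mouse. The adjusted limma p was under 0.05 for 0 of 12 members in each pair of tissues, against 0.249% of all probe sets for liver minus WAT, 0.153% for liver minus BAT and 0.02% for BAT minus WAT. The lowest p was that of Prodh2, which lay lower in liver and higher in WAT: liver minus WAT was -1.82 ± 0.76 SD (limma, adjusted p = 0.343). After the second quantile normalization this difference was 0.01 SD (limma, adjusted p = 1.0).

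Probe sets of the same gene did not always vary together between mice. Over the 14 arrays of a tissue, as deviations from the group means, the 10 pairs of Aldh18a1 probe sets had a median Pearson r of 0.61 in liver, 0.27 in WAT and 0.33 in BAT, and the lowest was -0.38 in BAT. The 3 pairs of Odc1 had a median r of 0.57 in liver, 0.93 in WAT and 0.57 in BAT. These are descriptions over shared arrays. When the probe sets of a gene were averaged, Aldh18a1 differed by 0.97 ± 0.57 SD in liver (exact permutation p = 0.088), 0.83 ± 0.56 SD in WAT (exact permutation p = 0.142) and 0.63 ± 0.55 SD in BAT (exact permutation p = 0.272). Odc1 gave 0.13, 0.09 and 0.67 SD in the same order. An average of deposited values is led by the probe set with the widest spread, which for Aldh18a1 was 1437325_x_at in all 3 tissues.

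The genes whose deviations were most like those of each member, over the 14 arrays of the tissue where its brightest probe set was highest, were named by rule. For Prodh in liver they were Slc35a4, E2f1 and Smyd3, with r from 0.87 to 0.90. For Prodh2 they were Sdhaf1, Hdac11 and Adamts7, with r from 0.87 to 0.91, and for Aldh4a1 they were Tox2, Ppm1k and Prr30, with r from 0.88 to 0.94. For Oat in WAT, Nnt, which encodes a mitochondrial transhydrogenase, was the nearest at 0.92, followed by Drosha and Kmt2e. For Odc1 1438761_a_at in WAT they were Fndc10, Fgfr3 and Ncald. For Aldh18a1 1435855_x_at in BAT they were Dynll1, Bud31 and Vps29, although the other probe sets of this gene were highest in WAT. In BAT its r with those probe sets ran from 0.125 to 0.563. Each list is the top of 18193 genes less the member itself and is given as a description. A gene was taken by its most alike probe set, out of the 34945 that name 1 gene.

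The other genes of the pathway were taken from a list of 58, of which 49 were measured with 1 probe set each. None passed limma after adjustment over all probe sets in any tissue. In liver 25 were higher and 24 lower, with a median of 0.01 SD against -0.05 SD over all genes, and 8 of 49, or 16.3%, had an unadjusted limma p under 0.05, against 8.79% of all genes. Of these 8, 6 were higher and 2 lower. In WAT 31 were higher and 18 lower, in BAT 22 were higher and 27 lower, and 1 gene in each fat, or 2.0% of the list, had an unadjusted limma p under 0.05, against 3.46% of all genes in WAT and 4.35% in BAT. Of all 18193 genes, 9148 were higher in WAT and 9354 in BAT. The values of this list are on the deposited scale and are not given after the second quantile normalization. Over all probe sets that normalization left 25.8% higher in liver, 4% in WAT and 11.4% in BAT. In liver it took those with an unadjusted limma p under 0.05 from 1878 to 310 higher and from 2218 to 3000 lower.

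The polyamine genes held both ends of the liver list. Dohh, which encodes the enzyme that completes hypusine on a translation factor from a spermidine-derived group, differed by 2.50 ± 0.74 SD (exact permutation p = 0.00117, adjusted limma p = 0.33), and every VAAM mouse was above the median of the water mice. Azin2, an inhibitor of the antizymes that hold Odc1 in check, differed by -2.13 ± 0.69 SD (exact permutation p = 0.00291, adjusted limma p = 0.349), and no VAAM mouse was above that median. Of the 11 polyamine genes measured, 5 were higher and 6 lower in liver. In the group of arginine and urea cycle genes 7 of 9 were higher in liver, among them Ass1 at 2.36 ± 0.72 SD (exact permutation p = 0.00233, adjusted limma p = 0.33). Arg1, Otc and Asl of that group differed by 0.39, 0.08 and 0.17 SD, and Cps1 and Nags by -0.28 and -1.02 SD. Ass1 was read from 1459937_at, the probe set that names it alone, at a level of 7.04, whereas Cps1, Otc and Asl stood at 13.86, 13.06 and 11.62. Arg2, the mitochondrial arginase that yields ornithine, differed by 1.19 ± 0.59 SD (exact permutation p = 0.0192, adjusted limma p = 0.526). Its level in liver was 6.45, below the median of all probe sets at 6.73.

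Among the other groups, the amino acid transporter Slc36a4 differed by 1.98 ± 0.67 SD in liver (exact permutation p = 0.00524, adjusted limma p = 0.352), and the proline transporter Slc6a7 by -1.29 ± 0.60 SD (exact permutation p = 0.0321, adjusted limma p = 0.636), which by limma's unadjusted p of 0.107 is not among the 8. Grhpr, which reduces glyoxylate at the end of hydroxyproline breakdown, differed by -1.32 ± 0.60 SD (exact permutation p = 0.0315, adjusted limma p = 0.496). Of the regulators, Atf4, which drives amino acid stress genes, differed by 1.31 ± 0.60 SD in liver (exact permutation p = 0.0303, adjusted limma p = 0.495), and Tat, a tyrosine aminotransferase kept in the same list, by 1.41 ± 0.61 SD (exact permutation p = 0.0192, adjusted limma p = 0.472). For both, the 7 VAAM values all exceeded the median of the water mice. Pycrl, a reductase that makes proline, differed by 0.23 SD in liver, 0.49 SD in WAT and 0.03 SD in BAT.

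In WAT the highest were Hoga1 at 1.14 SD, Smox at 1.01 SD and Atf4 at 0.93 SD, and the lowest Slc36a1, Agmat and Gpt, at -0.77, -0.75 and -0.69 SD. In BAT the highest were P4ha1 at 1.14 SD, Glul at 1.02 SD and Smox at 0.97 SD, and the lowest Oaz3, Otc and Azin2, at -0.97, -0.91 and -0.87 SD. P4ha1 encodes a prolyl hydroxylase of collagen and Smox an oxidase of spermine. None of these 12 values had an exact permutation p under 0.0519.

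**Figure D4:**
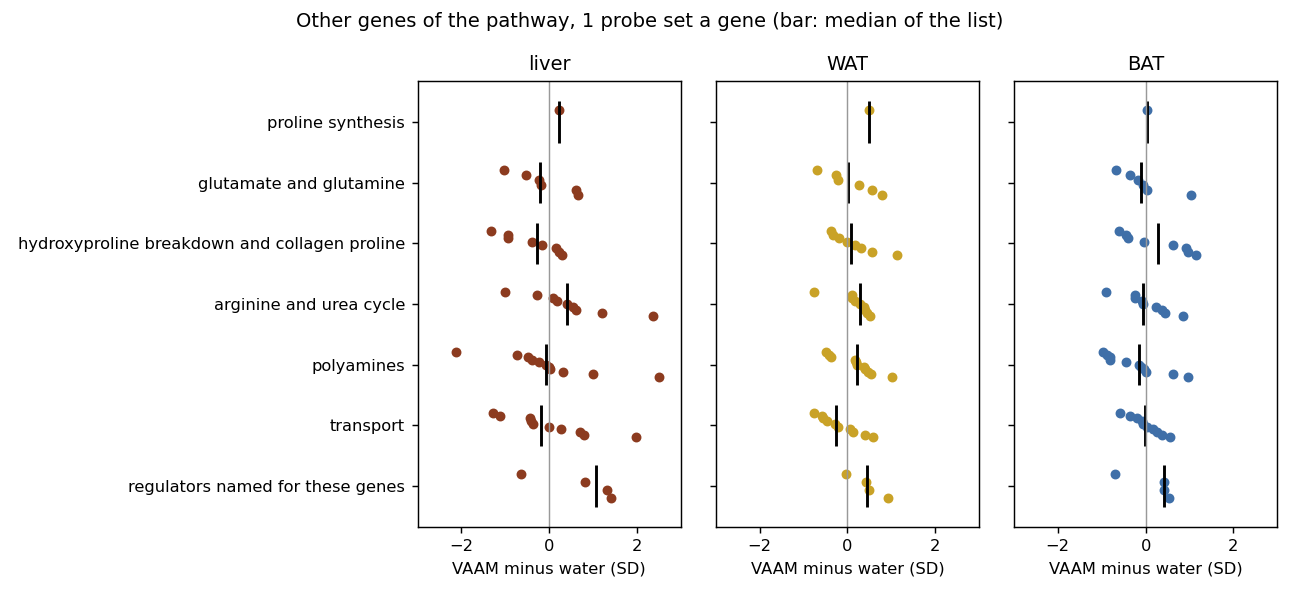
VAAM minus water (x axis, in within-group SD) for the 49 other genes of the pathway by role (y axis) in liver, WAT and BAT; each point is 1 gene and each bar the median of its list. The points of the polyamine list in liver run from -2.13 for Azin2 to 2.50 for Dohh, and in the fats no point goes past 1.14.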

How the data were processed

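Total RNA of liver, WAT and BAT was hybridized to Affymetrix mouse genome arrays. Probes were combined into probe sets by the authors with distribution free weighting (DFW), and the deposited log2 values per probe set were used as given. The submitters' processing notes name R 2.7.2, and the base of the logarithm, taken as 2, is not given in the sources used here. The tissues look summarized separately, so levels between tissues were given without the tests planned for them. The table held 45101 probe sets, of which 64 controls were left out. Of the rest, 34945 name 1 gene, 932 several and 9160 none, by GEO's platform annotation. No filter on low values was used, and no columns were left unmapped.

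VAAM and water were compared within each tissue by limma 3.58.1 (R 4.3.3) under its default prior, with Benjamini-Hochberg adjustment at 0.05, and each member by a two-sided exact permutation test over all splits of 14 mice. A difference was divided by the within-group SD, with SE from the group sizes. Rank products, member values and figures were made in Python 3.11.15 with numpy 2.4.6, pandas 2.3.3 and matplotlib 3.10.9. Both kinds of test were also run on simulated data with known differences. The simulated data for rank products had an equal spread in all rows, unlike the deposited values. A gene of the pathway list was read from whichever of its probe sets had the highest mean there. The 3 highest and 3 lowest of that list in each tissue and the 3 genes most like each member were named by rule, and further list genes named for liver had an unadjusted limma p under 0.05 or were named after their values were seen. The members, lists and rules were chosen with earlier results of these data known. Alternatives were other normalization, filter, prior, weights, block, scale, fit, rank products and leaving out arrays, and leaving out both WAT mice numbered 1 was added later.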

Additional observations from a re-analysis of the deposited data

Results flagged for a closer look

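Among the 72 groups of 7 mice, 12 probe sets in 3 tissues and 2 treatments, 6 held a mouse whose gap to the nearest of the others as a share of the group's range exceeded the 95% critical value of Dixon's test for 7 values. Chance alone passes this value in about 1 group in 20. In liver, VAAM mouse 5 stood at 3.27 SD for Aldh18a1 1437325_x_at, with the other 6 between 0.17 and 1.29 (gap over range 0.6392). Water mouse 5 stood at -1.42 SD for Aldh18a1 1435855_x_at, with the others between -0.13 and 0.72 (0.6024). In WAT, VAAM mouse 1 stood at 2.97 SD for Aldh18a1 1415836_at, with the others between -0.71 and 0.33 (0.7175). VAAM mouse 7 was the lowest for Odc1 1427364_a_at at -2.16 SD, with the others between -0.03 and 0.77 (0.7272), and for Odc1 1437711_x_at at -2.13 SD, with the others between -0.41 and 0.70 (0.6061). In BAT, VAAM mouse 4 stood at -1.63 SD for Odc1 1427364_a_at, with the others between 0.15 and 1.51 (0.5681). Without VAAM mouse 1 the WAT difference of Aldh18a1 1415836_at was -0.37 SD, against 0.25 with it. All 6 lay in probe sets of Aldh18a1 and Odc1, which hold 8 of the 12 probe sets.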

How the results depend on the processing

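No member passed the adjusted limma test in any tissue under any of the limma alternatives, which were a second quantile normalization, probe sets with means above the median only, a trend and robust prior, array weights, a replicate block, unit SD, 1 fit over 42 arrays and leaving out each array in turn, so every such count was 0. Over all 45037 probe sets, unit SD called 276 higher and 320 lower in liver, 17 and 24 in WAT, and 61 and 57 in BAT. The 1 fit over 42 arrays called 326 and 365, 67 and 62, and 101 and 214 in the same order. The count of members called was 4 in liver by rank products on the deposited scale and 0 by rank products in WAT, in BAT and on unit SD. The difference of the VAAM effect between tissues also gave 0 members under the block, without scaling and after the second normalization. Over all probe sets these settings called 165, 36 and 3 for liver minus WAT and 111, 28 and 2 for liver minus BAT. For BAT minus WAT they called 17, 3 and 0. The replicate numbers pair no mice between the groups, so a block by replicate number is no block by mouse. Same-numbered arrays had a median correlation of deviations of 0.03 in liver, 0.07 in WAT and 0.04 in BAT. With the replicate block the count of members called stayed at 0 in each tissue, and the all-probe count in liver was 1.

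The sign of single differences, none of them called, turned mainly with the second quantile normalization, which moved the median of all probe sets from -0.05 to -0.35 SD in liver, from -0.01 to -0.54 in WAT and from -0.02 to -0.21 in BAT. The values in SD became, in liver, Aldh4a1 0.19, Oat -0.23, Aldh18a1 1435855_x_at 0.22, Aldh18a1 1437333_x_at -0.982 and Odc1 1427364_a_at -0.044. In WAT they became Prodh2 -0.63, Aldh4a1 -0.43, Oat -0.17, Aldh18a1 1415836_at -0.80, Aldh18a1 1435855_x_at -0.48, Aldh18a1 1437325_x_at -0.43, Aldh18a1 1437333_x_at -0.83, Aldh18a1 1437620_x_at -0.79, Odc1 1427364_a_at -0.45 and Odc1 1438761_a_at -0.25. In BAT they became Aldh4a1 -0.039, Oat -0.18, Aldh18a1 1415836_at -0.22, Aldh18a1 1435855_x_at -0.43, Aldh18a1 1437333_x_at 0.002, Aldh18a1 1437620_x_at -0.12, Odc1 1427364_a_at -0.37, Odc1 1437711_x_at -0.12 and Odc1 1438761_a_at -0.01. Array weights gave Oat -0.11, Aldh18a1 1435855_x_at 0.17 and Aldh18a1 1437620_x_at 0.06 in liver and Aldh4a1 -0.22 in WAT. Without both mice numbered 1, a setting chosen after seeing the data, WAT gave Aldh4a1 -0.008 and Aldh18a1 1415836_at -0.28. The mean over all probe sets of Aldh18a1 gave 0.97 in liver, against -0.11 for 1435855_x_at. Leaving out each array turned the sign in at least 1 case for these ranges: in liver Oat from -0.34 to 0.27, Aldh18a1 1435855_x_at from -0.37 to 0.25, Aldh18a1 1437620_x_at from -0.32 to 0.30, Odc1 1427364_a_at from -0.14 to 0.49, Odc1 1437711_x_at from -0.24 to 0.48 and Odc1 1438761_a_at from -0.16 to 0.57, in WAT Aldh4a1 from -0.13 to 0.38, Aldh18a1 1415836_at from -0.37 to 0.44, Odc1 1427364_a_at from -0.21 to 0.53 and Odc1 1437711_x_at from -0.34 to 0.26, and in BAT Prodh from -0.52 to 0.30, Prodh2 from -0.48 to 0.26, Aldh4a1 from -0.18 to 0.33, Aldh18a1 1435855_x_at from -0.10 to 0.86 and Aldh18a1 1437333_x_at from -0.54 to 0.29. For Aldh18a1 1415836_at in WAT only the array of VAAM mouse 1 did so. The causes were not tested.

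Between tissues the number of members higher was the same in the VAAM mice, and within 1.5 times under joint quantile normalization and leaving out each water array. Counting only differences of at least 1 on the log scale, 3 members were higher in liver than in WAT, against 1640 of all 45037 probe sets. In liver against BAT the members higher were 4, against 2050 of all, and in BAT against WAT 0, against 801. Lower by at least 1 were 2, 1 and 2 members for the same pairs, against 4333, 2243 and 2367 of all. Joint normalization turned BAT minus WAT of Aldh4a1 to 0.12 and liver minus BAT of Aldh18a1 1437620_x_at to 0.0163. Of the 36 differences of levels between tissues, it turned these 2 and made 7 smaller and 4 larger by over 1.5 times. The planned tests between tissues, with their alternatives of prior, block and gene means, were not run, because nearly all probe sets separated the tissues. The number of arrays and the compressed scale limit what can be seen.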
